A study of Homo sapiens with 6 samples.

Results

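The S100 genes described here are 10 members of a family of small calcium-binding proteins, S100A1, S100A2, S100A4, S100A6, S100A10, S100A11, S100A13, S100A16, S100B and S100P. Every one of them was read on the array, by 16 probe sets in all, out of 18132 genes and 44988 probe sets with a single gene symbol. Their probe sets were found by symbol in the array annotation. The 10 genes were chosen with their values in this same comparison known, so their differences are given as a description and without a test. The samples are A375 cells, an established human melanoma line, in 3 arrays of cells that carried a lentivirally delivered short hairpin RNA against UBE2S and in 3 arrays of control A375 cells. The enzyme UBE2S extends ubiquitin chains on substrates of the anaphase-promoting complex. The labels call the 3 samples of each group biological replicates, and the number of hairpins or clones, and the treatment of the control cells, are not stated in those labels. All values are log2 expression centred, for each probe set, on the median of the 6 arrays, so they show differences between arrays and cannot rank 1 gene's level against another's.

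S100 proteins are built from a pair of EF-hand loops, and most work as dimers that open a binding surface when calcium is bound. Inside cells they attach to annexins, myosin, ezrin and other targets, and several are also released and act on receptors such as RAGE (AGER). In melanoma S100B is the classical marker of the family, used in tissue sections and in serum. Most of the family's genes lie together on human chromosome 1, while S100B lies on chromosome 21 and S100P on chromosome 4.

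UBE2S itself read -1.13, -1.05 and -1.01 in the knockdown arrays, against 1.06, 1.01 and 1.01 in the control arrays. Its difference of -2.09 (SE 0.043), a 4.25-fold lower signal, had an adjusted p of 9.23e-08 in limma. UBE2S was read by 1 probe set, of a kind (_s_at or _x_at) that can also bind other transcripts. Over all genes, 40.1% passed limma at an adjusted p under 0.05, with 3888 (21.4%) higher and 3378 (18.6%) lower, and 50.0% did not overlap between the groups. The 18 hybridization spike-in probe sets read 0.17 higher in the knockdown group, and with arrays centred on them the median of all genes moved to -0.17, against -0.0038 as deposited, and the split became 1764 higher and 9196 lower. With 24 poly-A spike-in probe sets the median was -0.10 and the split 2486 and 6297. The 3' minus 5' difference of the ACTB control probe sets averaged 0.19 more in the knockdown group than in the control group, without overlap. For GAPDH the gap was 0.023, with overlap, and the part of RNA quality in the differences below was not tested. A coarse signal class can be read from the rounding of the values. It placed 9 of the 10 S100 genes in the high class (about 8 or more before centring). S100A1 was in the middle class (about 4 to 8). Of 6 melanocyte markers with a value, SOX10 reached the high class, PMEL, MLANA, TYR and MITF the middle one and TYRP1 the lowest (2 to 4), and their summed level cannot be given from centred values. Of 23 background probe sets, 13 lay in the lowest class and the others outside it. By itself, then, neither the lowest class nor a higher one is a sign of expression.

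The promoters of 3 S100 genes with large differences, S100A2, S100P and S100A13, and of S100A3, a family gene outside the 10 whose fall is given further on, are shown because they are the S100 genes with the largest differences for which a window was listed. Each is the first window listed for its gene, from 250 bases before to 50 after the start, 5' to 3', taken from RefSeq (GRCh38.p14), in the order chr1:153565795-153566094 (minus strand), chr4:6693628-6693927 (plus strand), chr1:153634312-153634611 (minus strand) and chr1:153549209-153549508 (minus strand). Capitals mark matches, on either strand, to the motifs named after the sequences.
S100A2: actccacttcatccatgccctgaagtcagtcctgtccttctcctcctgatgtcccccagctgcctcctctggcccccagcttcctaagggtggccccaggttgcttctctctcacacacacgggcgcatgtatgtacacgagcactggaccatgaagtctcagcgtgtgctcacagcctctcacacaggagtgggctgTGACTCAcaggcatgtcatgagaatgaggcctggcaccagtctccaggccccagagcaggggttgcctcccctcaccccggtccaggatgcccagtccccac
S100P: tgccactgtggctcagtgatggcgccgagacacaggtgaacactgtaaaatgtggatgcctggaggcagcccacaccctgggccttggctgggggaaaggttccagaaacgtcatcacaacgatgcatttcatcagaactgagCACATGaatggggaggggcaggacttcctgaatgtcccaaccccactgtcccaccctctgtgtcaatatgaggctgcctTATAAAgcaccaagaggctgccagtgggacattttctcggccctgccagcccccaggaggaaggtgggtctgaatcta
S100A13: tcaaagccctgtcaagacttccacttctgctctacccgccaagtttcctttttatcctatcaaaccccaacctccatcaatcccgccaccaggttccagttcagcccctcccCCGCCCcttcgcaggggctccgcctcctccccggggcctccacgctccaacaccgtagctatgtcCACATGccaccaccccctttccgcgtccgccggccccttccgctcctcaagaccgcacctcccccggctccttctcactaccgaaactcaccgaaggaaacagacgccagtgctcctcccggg
S100A3: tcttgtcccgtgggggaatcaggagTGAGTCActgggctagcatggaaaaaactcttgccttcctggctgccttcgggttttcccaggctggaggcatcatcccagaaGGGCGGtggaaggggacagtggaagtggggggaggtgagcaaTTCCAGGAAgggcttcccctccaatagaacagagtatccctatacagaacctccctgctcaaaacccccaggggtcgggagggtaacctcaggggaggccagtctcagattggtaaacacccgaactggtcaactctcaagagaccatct
The search used TGANTCA for the AP-1 site. It used CACGTG for the E-box and, for the related M-box-like E-box, the letters CATGTG. The GC box was searched as GGGCGG. The TATA box was searched as TATAAA, and the GAS element of STAT factors as TTCNNNGAA. The interferon response element was searched too. S100A2 held an AP-1 match that begins at position -52 from the start, and S100A3 held another at -225, next to a GC box at -142 and a GAS match at -100, with no overlap between matches. AP-1 letters occur in 7.71% of the 35116 promoter windows of this length, and GAS letters in 7.66%. S100P held TATAAA at -28 and CACATG, the reverse strand of CATGTG, at -107, and S100A13 held a GC box at -138 and CACATG at -73. TATAAA is found in 11.5% of windows, CATGTG in 11.1% and the GC box in 45.0%. Among the 9 S100 genes of the set with a window, the first window held AP-1 in 1, TATAAA in 2, CATGTG in 2 and the GC box in 4, where the matches in S100A6 include a pair that overlap. The letters of the E-box CACGTG (7.26% of windows), of the interferon response element (3.57%) and of the GAS element are not in these 9 windows. S100B is not in the promoter table.

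In the UBE2S knockdown arrays S100B (2.13-fold) and S100A13 (1.39-fold) read higher than in controls, S100A2 (2.05-fold) and S100P (1.84-fold) read lower, and the differences of the remaining 6 genes lay between -0.27 and 0.14. In bulk RNA of this kind, fewer cells with a transcript and less of it per cell cannot be told apart. Across the 10 genes, 8 did not overlap between the groups, 3 higher and 5 lower, where 50.0% of all genes did not overlap (26.2% higher and 23.9% lower). With hybridization spike-in centring 9 did not overlap, 2 higher and 7 lower, and with poly-A spike-in centring 9, 3 higher and 6 lower. The shares of all genes under these centrings are not given here. Nothing is read from these counts because the genes were chosen on this comparison. Their differences ran from -1.04 to 1.09 with a median of -0.086, against -0.0038 over all genes. Since each probe set is centred on its median, the nearest arrays of groups that do not overlap lie equally far above and below 0 in that probe set.

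**Figure D1:**
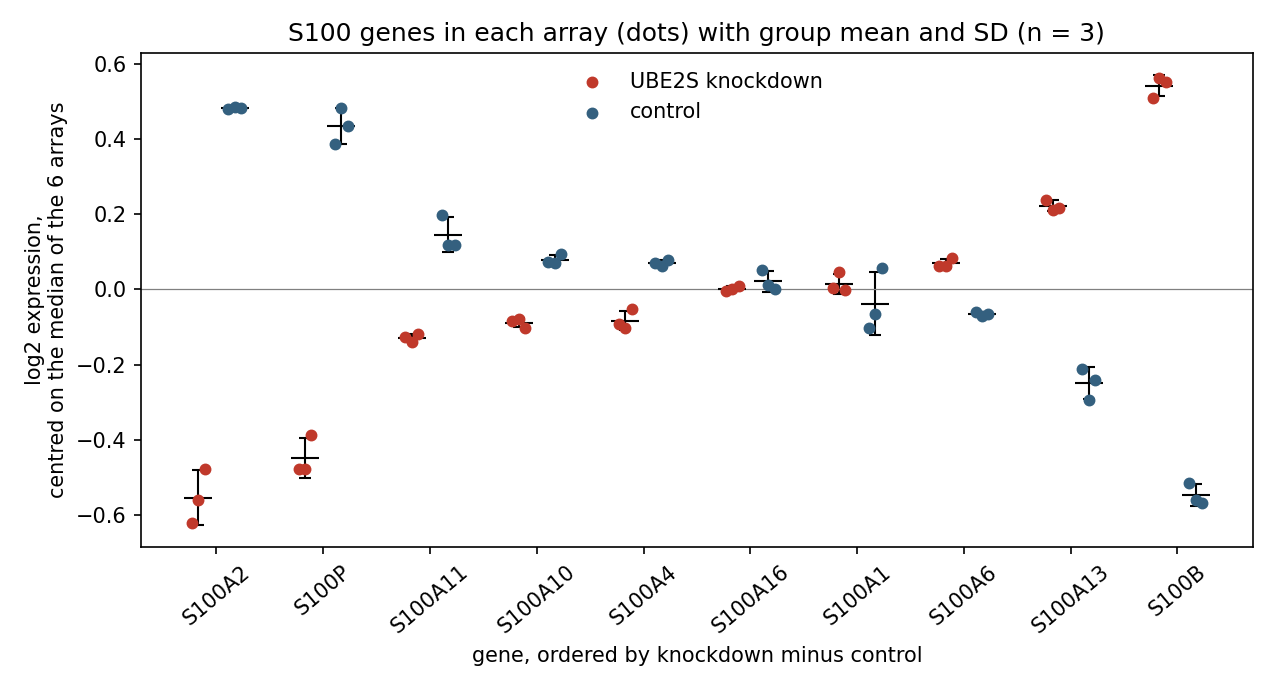
Centred log2 expression (vertical axis) of the 10 S100 genes in each array, ordered by knockdown minus control, with the 3 UBE2S knockdown arrays as red dots left of the 3 control arrays as blue dots, and black marks for the group mean and SD (n = 3). S100A2 at the left and S100B at the right show the widest separation, at -1.04 and 1.09, while S100A16 and S100A1 overlap between the groups.

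S100B, the melanoma marker, which binds the actin-capping protein CapZ among other targets, read 0.51, 0.56 and 0.55 in knockdown arrays, against -0.51, -0.56 and -0.57 in control arrays. All knockdown arrays lay above all control arrays by at least 1.02. The means were 0.54 ± 0.028 in knockdown cells and -0.55 ± 0.029 in control cells (SD, n = 3 each), a difference of 1.09 (SE 0.036) or 2.13-fold. It was the 74th largest rise of 18132 genes. The 3 probe sets of S100B gave 1.15, 1.03 and 1.08, all in the high signal class. The genes whose 6-array profile lay closest to that of S100B were SAT1, a polyamine acetyltransferase, at a root-mean-square distance of 0.023, OAS1, an interferon-induced enzyme of antiviral defence, at 0.031, and PBXIP1, a PBX-binding protein, at 0.033. Their differences were 1.07, 1.08 and 1.06, and this likeness over 6 arrays rests mainly on the gap between the groups.

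S100A13 is required, with synaptotagmin 1, for the release of the growth factor FGF1 by a route that bypasses the usual secretory pathway. It read 0.24, 0.21 and 0.22 in knockdown arrays, against -0.21, -0.29 and -0.24 in control arrays, again without overlap. The means of 0.22 ± 0.014 in knockdown cells and -0.25 ± 0.042 in control cells (SD, n = 3 each) differed by 0.47 (SE 0.037), or 1.39-fold. S100A6, or calcyclin, which binds the ubiquitin-ligase adaptor CACYBP, read 0.063, 0.061 and 0.084 in knockdown arrays, against -0.061, -0.072 and -0.065 in control arrays. The groups were apart by 0.12 and the difference was 0.14 (SE 0.033), but with hybridization spike-in centring its sign turned (-0.032) and with poly-A spike-in centring it was 0.037.

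S100A2, a mostly nuclear family member of epithelial cells, read -0.62, -0.56 and -0.48 in knockdown arrays, against 0.48 in each of the 3 control arrays. The knockdown arrays lay at least 0.96 below the controls, and the controls differed among themselves by an SD of only 0.0029, against an SD of 0.072 among knockdown arrays. The difference of -1.04 (SE 0.044) was a 2.05-fold lower signal in knockdown cells and the 86th largest fall of all genes. S100P, first isolated from placenta and known as a ligand of RAGE and a partner of ezrin, read -0.48, -0.48 and -0.39 in knockdown arrays, against 0.39, 0.48 and 0.43 in control arrays. Its groups were 0.77 apart, and the means of -0.45 ± 0.053 in knockdown cells and 0.43 ± 0.047 in control cells (SD, n = 3 each) gave a difference of -0.88 (SE 0.044), 1.84-fold lower. Both S100A2 and S100P are read by a single probe set, as are S100A13 and S100A6 above, so no further probe set measures the size of any of these differences.

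S100A10 and S100A11 are among the annexin-binding members of the set: S100A10 (p11) forms a tetramer with annexin A2 and cannot bind calcium, and S100A11 binds annexin A1. S100A11 read -0.13, -0.14 and -0.12 in knockdown arrays, against 0.20, 0.12 and 0.12 in control arrays, a difference of -0.27 (SE 0.038). Its only probe set carries the suffix _s_at, given to probe sets that several transcripts share, and RefSeq lists several S100A11 pseudogenes. S100A10 read -0.084, -0.078 and -0.10 in knockdown arrays, against 0.072, 0.069 and 0.093 in control arrays. The difference was -0.17 (SE 0.033), with -0.11 and -0.23 in its 2 probe sets, the larger in the _x_at one, which can bind related transcripts. S100A4, known as metastasin for its link to tumour spread and a binder of non-muscle myosin, read -0.093, -0.10 and -0.054 in knockdown arrays, against 0.071, 0.063 and 0.077 in control arrays. Its difference was -0.15 (SE 0.034), with -0.17, -0.18 and -0.11 in the 3 probe sets. In these 3 genes no knockdown array reached a control array, and the signal in knockdown cells was between 82.7% and 89.9% of that in control cells.

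S100A16 and S100A1 overlapped between the groups in the values as deposited. S100A16 read -0.0036, 0.00022 and 0.0087 in knockdown arrays, against 0.052, 0.013 and -0.00043 in control arrays, and its 2 probe sets differed in sign (-0.071 and 0.031). S100A1, best known from heart muscle, where it acts on calcium handling, read 0.0023, 0.046 and -0.0023 in knockdown arrays, against -0.10, -0.067 and 0.056 in control arrays. Its difference was 0.053 (SE 0.048), which became -0.11 with hybridization spike-in centring, and that of S100A16 was -0.020 (SE 0.034), which became -0.19. S100A1 is annotated wholly within the span of S100A13 in RefSeq.

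**Figure D2:**
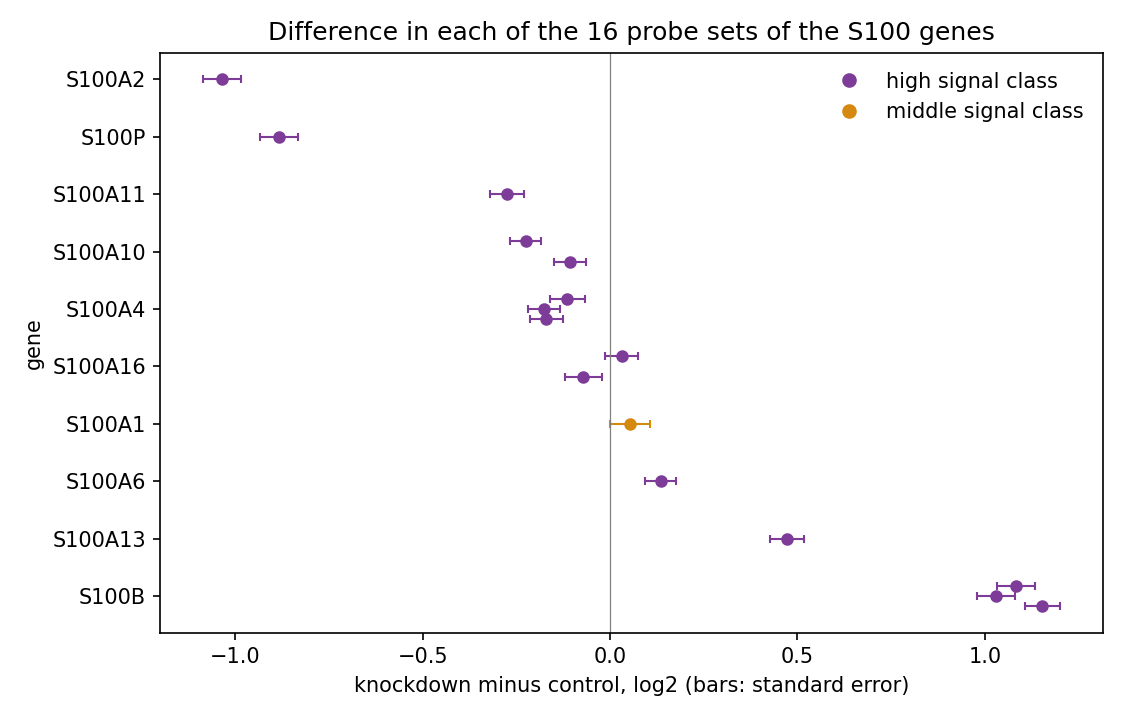
Knockdown minus control on the log2 scale (horizontal axis) for each of the 16 probe sets of the S100 genes, with genes down the page, bars for the standard error and colour for the signal class. The 3 probe sets of S100B lie between 1.03 and 1.15, while those of S100A16 fall on both sides of 0.

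Of the 16 probe sets, 13 did not overlap between the groups, where 48.2% of all probe sets and 71.1% of those in the high signal class did not. The spread within groups was small for the S100 genes, with a pooled SD between 0.0098 for S100A6 and 0.062 for S100A1 and a median of 0.030, against 0.058 over all genes. S100A6, S100A10, S100A4 and S100A16 lay in the lowest 5% of genes by that spread. Of the 10 S100 genes 9 are in the high signal class, and S100A4, S100A10 and S100A16 are means of several probe sets. The spread of the S100 genes was not compared with that of genes alike in these respects. S100A4 and S100A10 did not overlap between the groups, as 50.0% of all genes did not. In size their differences were exceeded by 38.0% and 35.2% of all genes.

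The family holds 11 further genes with a value on the array, and 2 of them fell in limma and 0 rose, or 18.2%, where 40.1% of all genes passed. S100A3, a cysteine-rich protein of the hair cuticle that is not among the 10 genes, read -0.66, -0.73 and -0.66 in knockdown arrays, against 0.71, 0.66 and 0.66 in control arrays. Its fall of -1.36 (SE 0.038, adjusted p = 3.00e-07 in limma), or 2.56-fold, was larger than that of any of the 10, and it was read by 1 probe set of the high signal class. S100A14 fell by 0.25 (SE 0.058, adjusted p = 0.00930 in limma), but its only probe set is in the lowest signal class. The myeloid genes S100A8 (0.016), S100A9 (-0.057) and S100A12 (-0.19, adjusted p = 0.0913 in limma) did not pass. Neither did S100A5 (-0.11), S100A7 (0.11), S100A7A (0.043), S100A7L2 (-0.014), S100G (0.057) and S100Z (-0.0098). S100A7A passed as higher without the lowest signal class (0.15) and had the opposite sign with unshared probe sets (-0.059). S100A12 passed as lower without knockdown replicate 2 (-0.26) or control replicate 3 (-0.25) and with either spike-in centring (-0.36 and -0.29). The median of these 11 genes was -0.014, and 3 of them had an unadjusted p under 0.05. Under hybridization spike-in centring 5 fell and 0 rose, with S100A9 (-0.22), S100A12 and S100A7L2 (-0.18) added. S100A7 (-0.060), S100A7A (-0.12), S100A8 (-0.15) and S100G (-0.11) turned in sign there without passing. Of all 18132 genes, 1764 rose and 9196 fell under that centring.

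Along chromosome 1 the S100 genes form a cluster of 16 protein-coding members, 8 of them among the 10 genes described. In RefSeq order S100A6, S100A5, S100A4, S100A3, S100A2, S100A16, S100A14, S100A13 and S100A1 follow one another, and their differences changed sign along the row. S100A3 (-1.36) and S100A2 (-1.04) are adjacent, with the smaller fall of S100A4 (-0.15) beside S100A3, and with S100A16 (-0.020) on the other side of S100A2. S100A13 (0.47) follows S100A14 (-0.25) and holds S100A1 (0.053) within its span, and S100A6 (0.14) lies on the far side of S100A5 (-0.11). S100A10 and S100A11 sit at the other end, divided from the rest by genes of the epidermis. Of 44 measured non-S100 genes between the first and last S100 gene, mostly genes of the cornified envelope, 1 rose and 6 fell, or 15.9% against 40.1% of all genes, with a median of -0.037. SPRR2D rose by 0.47 (SE 0.038, adjusted p = 3.72e-05 in limma), and LCE1F (-0.28), SPRR3 (-0.28) and SPRR1A (-0.24) fell. For 16 of these 44 genes all probe sets lay in the lowest signal class. The counts were 1 higher and 28 lower under hybridization spike-in centring and 1 higher and 16 lower under poly-A spike-in centring. Over all 18132 genes these centrings gave 1764 higher and 9196 lower, and 2486 higher and 6297 lower. Among those 44 are the 7 genes of S100-fused epidermal proteins, of which RPTN alone fell (-0.16, SE 0.039), at the lowest signal class.

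**Figure D3:**
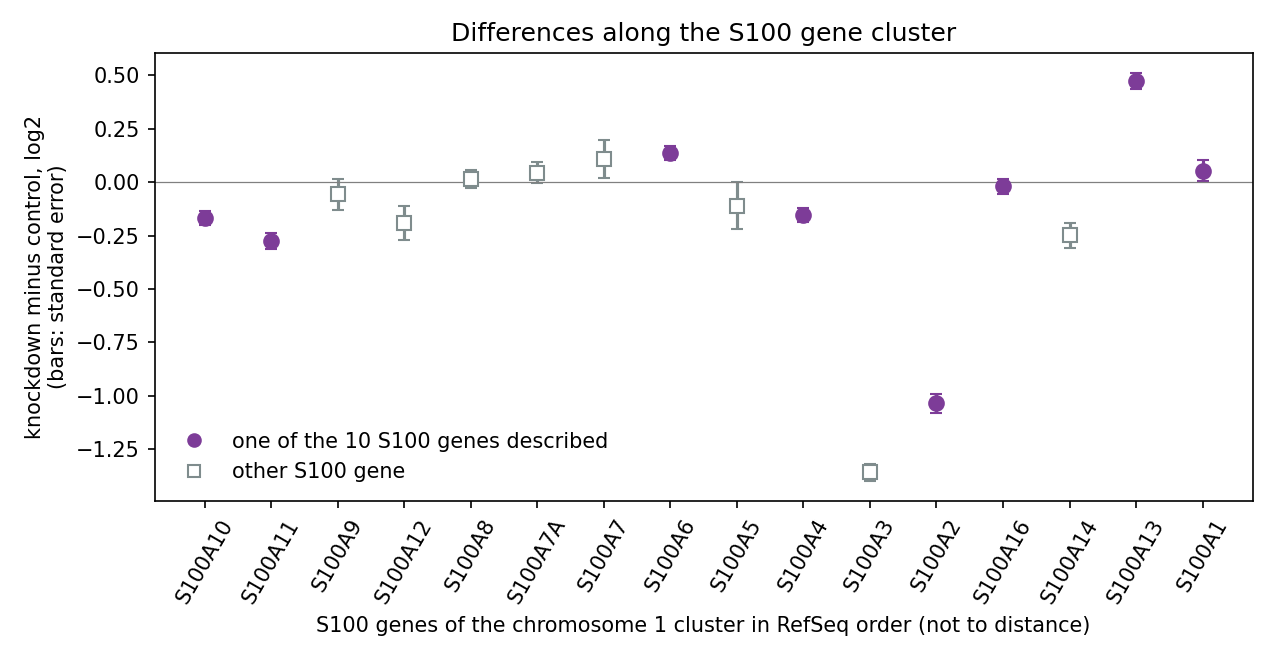
Knockdown minus control on the log2 scale (vertical axis, bars for the standard error) for the 16 protein-coding S100 genes of chromosome 1 in RefSeq order, evenly spaced. Purple dots are the S100 genes described and open squares the other S100 genes, and the adjacent S100A3 and S100A2 reach -1.36 and -1.04 while S100A13 stands at 0.47.

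Annexins, the membrane-binding partners of several S100 proteins, were measured for 12 genes, of which 1 rose and 4 fell in limma, or 41.7% against 40.1% of all genes, with a median of 0.00049. ANXA2, the partner of S100A10, read -0.29, -0.22 and -0.22 in knockdown arrays, against 0.24, 0.20 and 0.20 in control arrays. It fell by 0.46 (SE 0.037, adjusted p = 3.67e-05 in limma), with all 6 probe sets between -0.61 and -0.31. ANXA1, the partner of S100A11, fell by 0.22 (SE 0.040, adjusted p = 0.00279 in limma), and by 0.34 without its probe set of the lowest signal class, which gave 0.29. In these pairs S100A10 (-0.17) and ANXA2 (-0.46), and S100A11 (-0.27) and ANXA1 (-0.22), were all lower in knockdown cells, without overlap between the groups. Of all genes, 23.9% were lower without overlap, and S100A10 and S100A11 were chosen on this comparison. The pair of S100A6 (0.14) and ANXA11 (-0.023) did not share a direction, and ANXA11 overlapped between the groups. ANXA5, which binds phosphatidylserine, fell most (-0.64, SE 0.038), ANXA10 fell (-0.30) at the lowest signal class, and ANXA9 rose by 1.0 (SE 0.11). ANXA11, a partner of S100A6, stood at -0.023 (SE 0.035) and did not pass with an adjusted p of 0.665 in limma, but it passed as lower with either spike-in centring (-0.19 for hybridization and -0.12 for poly-A). Hybridization spike-in centring gave 1 higher and 7 lower, where it gave 1764 higher and 9196 lower of all 18132 genes.

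Of 31 measured intracellular and secreted partners, 8 rose and 7 fell, or 48.4% against 40.1% of all genes, with a median of -0.0075. SYT1, the calcium sensor synaptotagmin 1, read 0.54, 0.54 and 0.68 in knockdown arrays, against -0.62, -0.59 and -0.61 in control arrays. It rose by 1.19 (SE 0.048, adjusted p = 1.17e-06 in limma), with 0.83, 1.29 and 1.46 in its 3 probe sets, all of the middle signal class. FGF1 rose by 0.25 (SE 0.042, adjusted p = 0.00189 in limma), a call lost with hybridization spike-in centring (0.081). Of its 4 probe sets, those at 0.37 and 0.46 did not overlap between the groups and those at 0.067 and 0.10 did. PLAT, the tissue plasminogen activator bound by S100A10 with annexin A2, fell by 0.81 (SE 0.037, adjusted p = 2.04e-06 in limma), and its 7 probe sets lay between -1.03 and -0.68. AHNAK, a giant scaffold held at the membrane by S100A10 and annexin A2, fell by 0.38 (SE 0.055, adjusted p = 7.58e-04 in limma).

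The protease CTSB, also bound by S100A10, rose by 0.40 (SE 0.037), although its 4 probe sets ran from -0.49 to 0.76, and PLA2G4A, a phospholipase held back by S100A10, rose by 0.39 (SE 0.038). The scaffold IQGAP1, bound by S100B and S100P, rose by 0.37 (SE 0.034), and the membrane linker ezrin (EZR), bound by S100P, rose by 0.20 (SE 0.037), a call lost with either spike-in centring (0.030 and 0.10). CAPZB, a subunit of the CapZ protein to which S100B binds, fell by 0.42 (SE 0.057) in its single probe set, while the other subunits, CAPZA1 (-0.038, adjusted p = 0.458 in limma) and CAPZA2 (-0.051, adjusted p = 0.378 in limma), did not pass. SUGT1, a chaperone partner bound by S100A6, rose by 0.24 (SE 0.036) and did not pass with hybridization spike-in centring (0.072). MYH9, the myosin heavy chain bound by S100A4, stood at 0.089 (SE 0.063), the kinase STK38 at 0.045 (SE 0.047) and CACYBP at -0.093 (SE 0.039), and these 3 did not pass, with adjusted p of 0.315, 0.508 and 0.0957 in limma. The CACYBP probe sets ran from -0.54 to 0.084, and the gene passed with its largest-variance probe set (-0.54), with unshared probe sets (-0.27), without the lowest signal class (-0.14) and with either spike-in centring (-0.26 and -0.19). With hybridization spike-in centring STK38 turned in sign and passed as lower (-0.12), and MYH9 turned in sign without passing (-0.079). Hybridization spike-in centring gave 4 higher partners and 18 lower, and poly-A spike-in centring 6 higher and 12 lower. The same centrings gave 1764 higher and 9196 lower, and 2486 higher and 6297 lower, of all 18132 genes.

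Among 7 cell-surface receptors of S100 proteins, 1 rose and 2 fell, or 42.9% against 40.1% of all genes, with a median of -0.0035. RAGE (AGER), the best known of them, stood at -0.035 (SE 0.039) over 10 probe sets and did not pass with an adjusted p of 0.528 in limma, but it passed as lower with either spike-in centring (-0.20 for hybridization and -0.13 for poly-A). MCAM, a melanoma adhesion molecule and receptor of S100A8 and S100A9, rose by 0.45 (SE 0.042, adjusted p = 7.23e-05 in limma), with 0.43 and 0.47 in its 2 probe sets. BSG (basigin), a receptor of S100A9, fell by 0.15 (SE 0.037, adjusted p = 0.0130 in limma), although its 6 probe sets ran from -0.23 to 0.051. TLR4 fell by 0.18 (SE 0.045, adjusted p = 0.0133 in limma), but its 3 probe sets gave 0.27, -0.71 and -0.10. Hybridization spike-in centring gave 1 higher receptor and 4 lower, where it gave 1764 higher and 9196 lower of all 18132 genes.

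**Figure D4:**
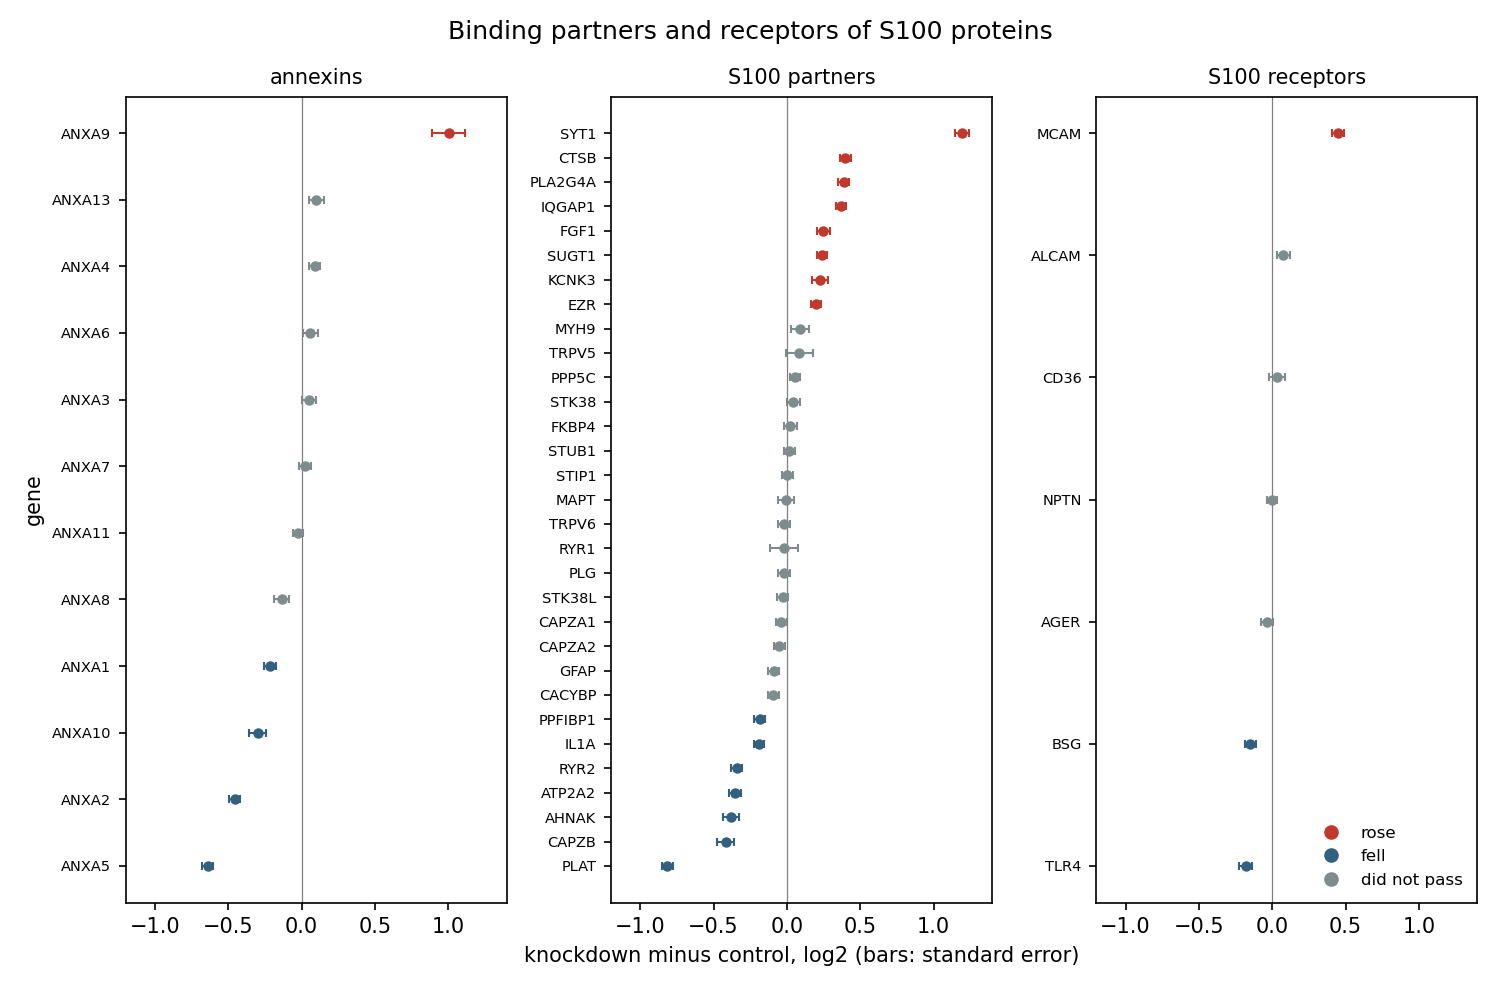
Knockdown minus control on the log2 scale (horizontal axes, bars for the standard error) for annexins, other S100 partners and S100 receptors, 1 gene per line, coloured by whether limma called it higher, lower or neither. ANXA5, ANXA2 and PLAT lie far to the left at -0.64, -0.46 and -0.81, and SYT1 and ANXA9 far to the right at 1.19 and 1.0.

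Other small EF-hand proteins were compared as relatives of the S100 fold outside the family. Of 35 measured, 6 rose and 5 fell, or 31.4% against 40.1% of all genes, with a median of -0.033. The neuronal calcium sensors NCALD and VSNL1 moved in opposite directions, NCALD rising by 0.91 (SE 0.041, adjusted p = 2.02e-06 in limma) and VSNL1 falling by 0.95 (SE 0.054, adjusted p = 6.32e-06 in limma). The centrins CETN2 and CETN3, of the centrosome, also parted, with a rise of 0.44 (SE 0.037) and a fall of 0.22 (SE 0.060). CIB1 rose by 0.23 and did not pass with hybridization spike-in centring (0.061), and CALML4 fell by 0.40. Hybridization spike-in centring gave 2 higher and 24 lower, and poly-A spike-in centring 3 higher and 13 lower. Of all 18132 genes, the former gave 1764 higher and 9196 lower, and the latter 2486 higher and 6297 lower.

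S100 genes are also products of keratinocytes and myeloid cells, so markers of other cell types were counted. Against 40.1% of all genes, 33.3% of the keratinocyte, fibroblast and melanocyte markers and 14.3% of the leukocyte markers passed. Of 6 keratinocyte markers 1 rose (KRT10, 0.22) and 1 fell (KRT14, -0.46), of 6 fibroblast markers 1 rose (LUM, 0.93) and 1 fell (DCN, -0.23), of 7 leukocyte markers 1 rose (CD68, 0.40) and 0 fell, and of 6 melanocyte markers 1 rose (TYRP1, 0.22) and 1 fell (MITF, -0.72). Of the leukocyte markers, CD68 reached the high signal class and 4 the middle class, while PTPRC and CD14 lay in the lowest. The keratinocyte marker loricrin was listed under another symbol and so was not counted. It did not pass (-0.078, adjusted p = 0.442 in limma). The part of other cells in the S100 values was not tested.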

How the data were processed

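Total RNA was labelled with biotin and hybridized to Affymetrix arrays, per the labels' protocols. The deposited values are log2 expression. The tools limma, RMA and affy are listed in the submitters' processing notes, without versions or roles. The log base is taken from RMA's output. Each probe set's median over all arrays is 0 (to within 4.85e-07), a centring step not described in the sources used here, so levels are lost and signal over background is unknown.

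The table held 49395 probe sets, 102 of them controls. The annotation gave 1 symbol for 44988, several for 1832 and none for 2473, and 44961 were matched by gene number to RefSeq (GRCh38.p14), with 0 symbols changed. No coordinates of probe sets are given, since no build is named.

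The mean of a gene's probe sets was fitted on all 6 arrays with limma 3.58.1 (lmFit, eBayes; R 4.3.3), two-sided, with Benjamini-Hochberg adjustment over 18132 genes and a call at an adjusted p under 0.05. The fit was tested on simulated data. Standard errors are moderated. P-values set the group difference against the spread between arrays of the same group, and the number of arrays limits the precision. All arrays are of A375 cells and the number of hairpins is not stated, so the p-values do not extend to other cell lines or hairpins. Within a group, the SD of the difference between any 2 arrays was 0.125 to 0.144, so none was deposited a second time. Signal classes come from the rounding step of single-precision values, with a tolerance of 0.1 step. A probe set can meet the step of a higher class by chance, so the bounds are approximate. A gene takes the highest class among its probe sets.

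The members and lists were chosen with earlier results of these data known. Named genes are UBE2S, all S100 genes, up to 3 called genes per direction in each list, a fixed partner panel (4 of its genes are not analysed here) and the 3 genes nearest to S100B. CAPZA1, CAPZA2 and the cell type markers were named with values in view. The alternatives tried were the largest-variance probe set, unshared probe sets only, centring on array medians or spike-ins, no lowest signal class, the replicate number as a block, a robust variance model, array weights and leaving out each array.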

Additional observations from a re-analysis of the deposited data

How the results depend on the processing

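With hybridization spike-in centring the count of changed genes was 10960, and the lists gave 5 other S100 genes, 5 receptors, 8 annexins, 26 EF-hand proteins and 29 cluster neighbours. With poly-A spike-in centring the cluster neighbours gave 17, where 8783 of all genes changed. S100A6 turned to -0.032 with hybridization spike-in centring. Leaving out 1 array at a time gave 6331 to 6637 changed genes and 7 to 11 EF-hand proteins, with 7 without control replicate 1 and 7 without control replicate 3, 5 to 9 cluster neighbours, 5 to 6 annexins, 2 to 3 other S100 genes, and 8 to 10 S100 genes without overlap, where fewer arrays make overlap rarer. CETN3 did not pass without knockdown replicate 3 (-0.18), nor SPRR3 without control replicate 1 (-0.26), nor SPRR1A with unshared probe sets only (-0.14). UBE2S stayed between -2.12 and -2.05 with 1 array left out. Unshared probe sets gave no value for UBE2S or S100A11. The deviations of same-numbered arrays correlated at -0.030, -0.016 and -0.10, against -0.069 to 0.096 for differently numbered arrays. No shared deviation was visible, but whether same-numbered samples were prepared together cannot be told from so few arrays. With the replicate block 6684 genes changed and 8 EF-hand proteins. The cause of these shifts was not tested.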
